A study of Bos taurus with 5 samples.

Results

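Replication licensing was examined in early cattle embryos (Bos taurus) through the transcripts of 10 genes: MCM2, MCM3, MCM4, MCM5, MCM6 and MCM7, which encode the ring of the replicative helicase, and CDT1, GMNN, CDC6 and ORC1, which encode the factors that load the ring or block its loading. The members were the rows of the deposited expression table whose gene name equals 1 of these symbols, and all 10 were found among 27607 genes. The series set embryos from low-performing sires, in 2 pools, against embryos from high-performing sires, in 3 pools, to compare the early transcriptome between classes of sire. Each pool held 100 embryos that had developed in vitro. The sample labels give the 4-cell stage for all pools and the series design 2 to 4 cells, and the treatment protocol names recombinant Wnt5A for every pool of both groups, without a dose. Performance is not defined in the labels. Nor do they tie the pools to single bulls or to separate rounds of fertilisation. The error behind each p-value therefore comes from the spread among 5 pools, part of which may be technical. In the limma test used below, a gene's error also draws on the spread of other genes at similar levels.

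Licensing is the step by which a stretch of chromosome becomes competent to replicate. The origin recognition complex, of which ORC1 is a subunit, marks the origin, CDC6 joins it, and CDT1 brings in the MCM2-7 ring, which later becomes the engine of the helicase that unwinds DNA. Geminin, the product of GMNN, binds CDT1 and prevents new rings from being loaded until the next cell cycle, so that each stretch of DNA is copied only once per cycle. Cleavage embryos divide rapidly without growth, and in cattle most of the transcripts they hold at the 4-cell stage were made by the mother during oocyte growth, before the major activation of the embryo's own genome.

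Read totals over genes, recovered from the deposited RPKM, ranged from 93659589 to 98684834 in the low-performing pools and from 67248924 to 113100809 in the high-performing pools. All 10 members lay far above the detection limit, with 3107 to 65606 reads per member and pool, so the counting error of any value was at most 1.79%, which covers counting error only. Low-performing pool 2 stood apart from the other 4 pools. Across 12448 genes its log2 values correlated with those of low-performing pool 1 at r = 0.976, while low-performing pool 1 correlated with high-performing pool 1 at r = 0.993. Low-performing pool 1 lay inside the range of the high-performing pools for 5 of the 10 members, and low-performing pool 2 for 3. All 10 listed markers of oocytes and early embryos, among them BMP15, GDF9 and ZAR1, were past the filter, with a summed level of 16764 to 22930 RPKM in the low-performing pools and 9602 to 13787 RPKM in the high-performing pools. BTG4 made up most of that sum, at 11816 and 16943 RPKM in low-performing pools against 9357, 6021 and 7752 RPKM in high-performing pools. The other 9 summed to 4948 to 5987 RPKM in low-performing pools and 3581 to 4430 RPKM in high-performing pools. Of the 10, 8 lay higher in both low-performing pools than in every high-performing pool, as did 29.4% of all genes tested. The groups overlapped for PADI6, at 216 and 199 RPKM in low-performing pools against 211, 209 and 220 RPKM in high-performing pools, and for NLRP5, at 83.6 and 66.0 RPKM in low-performing pools against 80.0, 76.0 and 81.8 RPKM in high-performing pools. Of 8 sperm markers 1 passed the filter, and PRM2 and TNP1 were at 0 in every pool. The 1 was TSSK6, which passed through the low-performing pools only. It had 1.27 and 1.13 RPKM there against 0.76, 0.85 and 0.88 RPKM in high-performing pools. Of the 8, 2 lay higher in both low-performing pools than in every high-performing pool, against 29.4% of all genes tested, and 0 lay lower. The 10 cumulus and granulosa markers summed to 188 to 191 RPKM in the low-performing pools and 189.7 to 209 RPKM in the high-performing pools, and STAR made up most of both sums, at 147 to 171 RPKM over the 5 pools. The others summed to 29.6 to 32.4 RPKM in low-performing pools and 32.0 to 43.0 RPKM in high-performing pools. HAS2 had 22.4 and 15.4 RPKM in low-performing pools against 22.9, 27.0 and 29.0 RPKM in high-performing pools. CYP11A1, at 4.52 to 12.9 RPKM, and PTX3, at 1.28 to 2.16 RPKM, were also past the filter, and FSHR stood at 0.0084 to 0.074 RPKM. Of the 10, 2 lay lower in both low-performing pools than in every high-performing pool, against 29.3% of all genes tested, and 0 lay higher. The 7 blood markers in the table summed to 17.4 to 19.6 RPKM in low-performing pools and 16.4 to 19.0 RPKM in high-performing pools. Of these sums CSF1R gave 14.4 to 16.9 RPKM over the 5 pools and CD3E at most 2.30 RPKM, while HBB was at 0 in every pool. Of the 7, 2 lay higher in both low-performing pools than in every high-performing pool, against 29.4% of all genes tested, and 0 lay lower. The part of the differences in BTG4 and the other markers in the results below was not tested.

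GMNN was the member that differed most between the sire groups, and it was higher in the low-performing pools, while the log2 differences of the other 9, which encode the ring and the factors that load it, were at most 0.37 in size. The scale used throughout is RPKM, reads per kilobase of gene scaled to the total of reads counted in genes. It divides by gene length so that levels of different genes can be set side by side. The group differences still went with gene length, as given below, so ratios between genes of unlike length are approximate. A fold change is the low-performing mean of log2(RPKM + 1) less the high-performing mean, tested with limma over 12448 genes that had at least 1 RPKM in at least 2 pools. All 10 members passed that filter. With the Benjamini-Hochberg adjustment, 0 of the 10 members passed an adjusted p of 0.05, as did 0 (0%) of all genes tested, and limma voom, run on reads recovered from RPKM, also called 0 members. At an unadjusted p under 0.05 there was 1 member of 10, GMNN, against 34.9% of all genes. For 4 of the 10 both low-performing pools lay on the same side of all high-performing pools, against 58.7% of all genes tested. GMNN and MCM7 were the 2 that were higher in the low-performing pools (29.4% of all genes), and MCM4 and CDT1 the 2 that were lower (29.3% of all genes). The median log2 fold change was -0.08 over the 10 members and -0.03 over all genes. RPKM gives each gene's share of the reads of its pool, not an amount of RNA per embryo. In pools of whole embryos, fewer cells holding a transcript and less of that transcript per cell cannot be told apart.

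**Figure D1:**
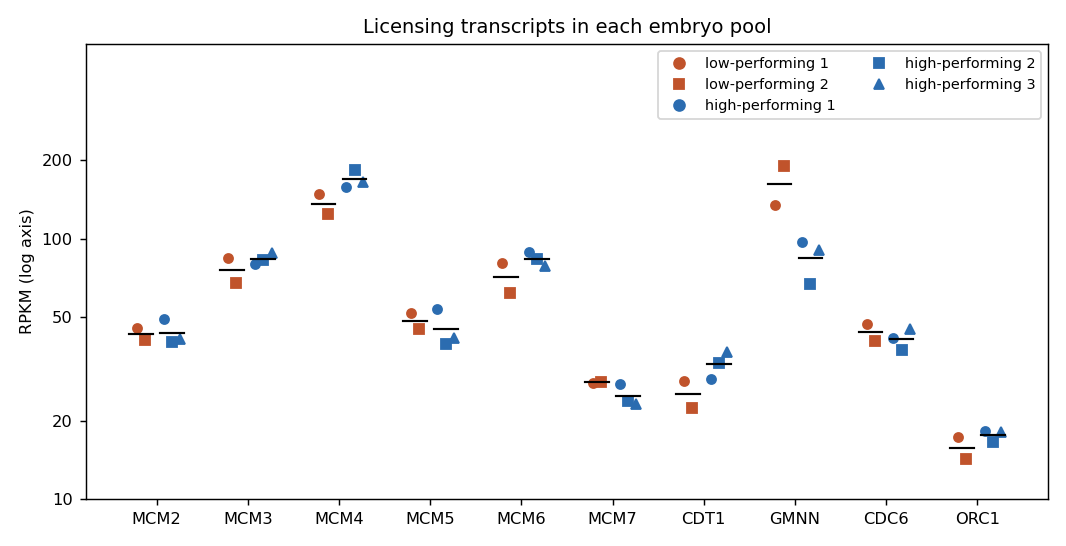
RPKM (log axis) of the 10 licensing transcripts in each pool, low-performing pools in orange and high-performing pools in blue, with a bar at each group's mean (n = 2 and n = 3). GMNN is the member with a clear gap between the groups, with both low-performing pools at or above 134 RPKM and the high-performing pools at or below 96.7 RPKM.

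Geminin mRNA (GMNN, ENSBTAG00000017329, chromosome 23, positions 33008576 to 33019344 on the minus strand of the ARS-UCD1.2 build, 7 exons) had 134 and 189.9 RPKM in low-performing pools 1 and 2, against 96.7, 66.7 and 90.6 RPKM in high-performing pools 1, 2 and 3. Both low-performing pools lay above every high-performing pool. The means were 162 ± 39.2 RPKM (SD, n = 2) in low-performing pools and 84.6 ± 15.9 RPKM (SD, n = 3) in high-performing pools, a ratio of 1.92. The spread within each group was wide, since low-performing pool 2 had 1.41 times the value of pool 1, and the highest high-performing pool had 1.45 times the lowest. This gave a log2 fold change of 0.93 ± 0.22 (SE), with a 95% interval from 0.42 to 1.43 before any adjustment for the number of genes. The limma p was 0.0032 unadjusted, at rank 347 of 12448 genes, and 0.0829 after adjustment, so the difference did not pass. In the authors' deposited table GMNN had a log2 fold change of 0.94 and an FDR of 0.00066. It was the only member of the 10 with an FDR under 0.05 there, against 7.95% of all 27607 genes. That base holds 15159 genes under the filter, which all 10 members passed, so the shares are not like for like.

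The size of the GMNN difference depended on the low-performing pool used. Without low-performing pool 1 the log2 fold change was 1.17 with a limma adjusted p of 0.0086, and without low-performing pool 2 it was 0.68 with an adjusted p of 0.324. Without low-performing pool 1, 43.7% of all genes passed, and the fit then assumes that the single low-performing pool left varies like the high-performing pools. GMNN is also the shortest member, at 1068 bases over its exons, against 2128 to 3667 bases for the other 9. With the trend of each pool over gene length removed, its log2 fold change was 0.62 (limma adjusted p = 0.101).

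**Figure D2:**
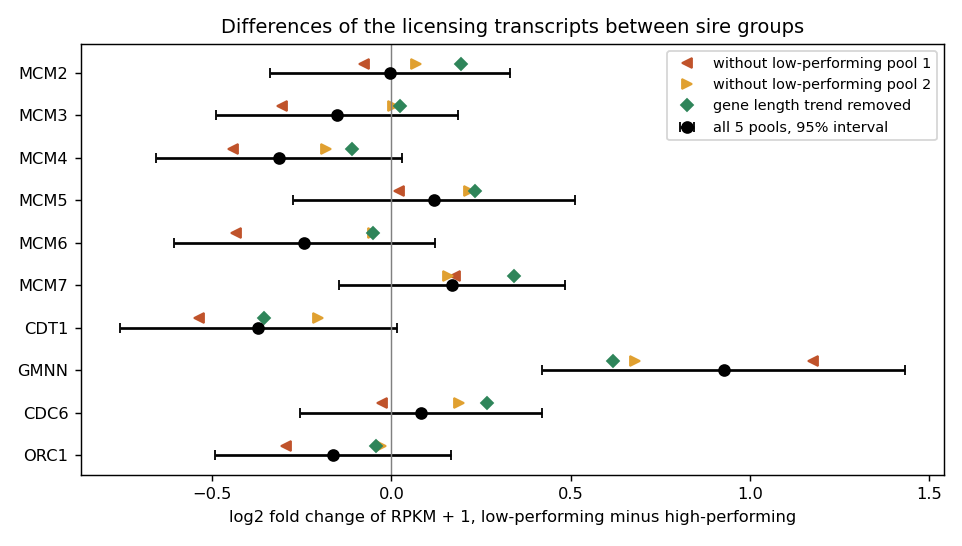
Log2 fold change of RPKM + 1, low-performing minus high-performing, for each member with its 95% interval from limma on all 5 pools (black), and the value without each low-performing pool and with the gene length trend removed. GMNN is the member whose interval, 0.42 to 1.43, lies clear of 0. Its value stays above 0 in each of the settings drawn, as it must without either low-performing pool, since both lie above every high-performing pool.

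CDT1, the loading factor that geminin binds, stood the other way. CDT1 (ENSBTAG00000000638, chromosome 18, positions 14008412 to 14012515, plus strand, 9 exons) had 28.3 and 22.3 RPKM in low-performing pools 1 and 2, against 28.8, 33.3 and 36.8 RPKM in high-performing pools 1, 2 and 3. The groups did not overlap, but low-performing pool 1 and high-performing pool 1 were nearly level. CDT1 had a log2 fold change of -0.37 ± 0.16 (SE), with a 95% interval from -0.76 to 0.015 and a limma adjusted p of 0.153. Without low-performing pool 1 it was -0.54 and without low-performing pool 2 it was -0.20, each with 1 low-performing pool left. In the authors' deposited table CDT1 had a log2 fold change of -0.38 and an FDR of 0.256.

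Geminin mRNA was in larger excess over CDT1 mRNA in the low-performing pools. GMNN exceeded CDT1 per length by 4.75 and 8.51 times in low-performing pools 1 and 2, against 3.36, 2.0 and 2.46 times in high-performing pools 1, 2 and 3. With GMNN higher and CDT1 lower in both low-performing pools than in every high-performing pool, the ratio could not overlap between groups. These were also the members with the highest and the lowest log2 fold change. The difference of the log2 ratios was 1.30 on the log2 scale, with 2.62 ± 0.58 (SD, n = 2) in low-performing pools and 1.32 ± 0.37 (SD, n = 3) in high-performing pools. An exact two-sided permutation test gave p = 0.2, the smallest value that the 10 splits of these pools allow. With the ratios apart the test could give no other value, so it decides nothing. Without low-performing pool 2 the difference was 0.88 and without pool 1 it was 1.71. With the gene length trend removed the difference was 0.97. Set against the sum of CDT1, CDC6 and ORC1, GMNN stood at 1.45 and 2.47 times that sum in the low-performing pools and at 1.09, 0.77 and 0.91 times in the high-performing pools. The summed level of those loading factors itself was 92.6 and 76.9 RPKM in low-performing pools and 88.5, 87.1 and 99.97 RPKM in high-performing pools, and there the groups overlapped.

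CDC6, the ATPase that joins the origin recognition complex before CDT1 and the MCM ring arrive, overlapped between the groups. CDC6 (ENSBTAG00000010384, chromosome 19, positions 40524612 to 40546357, plus strand, 15 exons) had 47.1 and 40.4 RPKM in low-performing pools 1 and 2, against 41.5, 37.3 and 45.1 RPKM in high-performing pools 1, 2 and 3. Low-performing pool 1 was the highest of the 5 and low-performing pool 2 lay inside the high-performing range. The log2 fold change of 0.08 ± 0.14 (SE) had a 95% interval from -0.26 to 0.42 (limma adjusted p = 0.699). It was -0.025 without low-performing pool 1. The annotated exons of CDC6 share 510 bases with WIPF2 on the same strand, and WIPF2 had 42.1 and 27.3 RPKM in low-performing pools against 44.2, 49.9 and 51.2 RPKM in high-performing pools, so the CDC6 level is uncertain to the extent that reads there were split or dropped.

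ORC1, the subunit of the origin recognition complex that comes and goes through the cell cycle in human cells, was the least abundant member. ORC1 (ENSBTAG00000002719, chromosome 3, positions 93962136 to 93993700, plus strand, 16 exons) had 17.2 and 14.2 RPKM in low-performing pools 1 and 2, against 18.2, 16.6 and 18.1 RPKM in high-performing pools 1, 2 and 3. Low-performing pool 2 was the lowest of the 5 and low-performing pool 1 lay inside the high-performing range. Its log2 fold change was -0.16 ± 0.14 (SE), with a 95% interval from -0.49 to 0.17 and a limma adjusted p of 0.425. It was -0.29 without low-performing pool 1 and -0.03 without low-performing pool 2.

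The MCM ring holds its 6 subunits in equal numbers, but their transcripts differed in level by 4.39 to 5.34 times between the highest and the lowest subunit in the low-performing pools and by 5.71 to 7.75 times in the high-performing pools. MCM4 was the most abundant and MCM7 the least abundant subunit in all 5 pools. MCM3 and MCM6 came next at similar levels, with MCM3 above MCM6 in 3 of 5 pools. MCM5 and MCM2 followed, with MCM5 above MCM2 in 4 of 5 pools. These neighbours, MCM3 with MCM6 and MCM5 with MCM2, overlapped in range over the 5 pools, while MCM4 with MCM3, MCM6 with MCM5 and MCM2 with MCM7 did not.

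MCM4 (ENSBTAG00000017021, chromosome 14, positions 19551601 to 19563221, plus strand) had 148 and 124 RPKM in low-performing pools 1 and 2, against 158, 184 and 165 RPKM in high-performing pools 1, 2 and 3. Both low-performing pools lay below every high-performing pool. The log2 fold change of -0.31 ± 0.15 (SE) had a 95% interval from -0.66 to 0.031 (limma adjusted p = 0.168). Leaving out low-performing pool 1 gave -0.44, leaving out low-performing pool 2 gave -0.18, and with the gene length trend removed it was -0.11. MCM4 made up 33.9% and 33.7% of the summed RPKM of the ring in the low-performing pools and 34.6%, 40.5% and 37.7% in the high-performing pools.

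MCM6 (ENSBTAG00000015172, chromosome 2, positions 61489617 to 61524285, plus strand), which with MCM4 and MCM7 forms the stable core of the ring, had 80.7 and 61.8 RPKM in low-performing pools, against 89.1, 83.9 and 78.6 RPKM in high-performing pools. Low-performing pool 1 lay inside the high-performing range and low-performing pool 2 below it. For MCM6 the log2 fold change was -0.24 ± 0.16 (SE; limma adjusted p = 0.289), with a 95% interval from -0.61 to 0.12. It was -0.43 without low-performing pool 1 and -0.052 without low-performing pool 2.

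MCM7 (ENSBTAG00000030965, chromosome 25, positions 36349409 to 36356836, plus strand) had 27.8 and 28.2 RPKM in low-performing pools, against 27.7, 23.7 and 23.3 RPKM in high-performing pools. The groups did not overlap, by a margin of a fraction of 1 RPKM over high-performing pool 1. The log2 fold change was 0.17 ± 0.13 (SE), with a 95% interval from -0.15 to 0.48 and a limma adjusted p of 0.387. AP4M1, on the opposite strand, shares 146 exon bases with MCM7 and stayed between 1.54 and 1.76 RPKM in all pools.

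MCM3 (ENSBTAG00000010721, chromosome 23, positions 24694544 to 24712140, minus strand), which pairs with MCM5 in the ring, had 83.9 and 67.5 RPKM in low-performing pools, against 80.3, 82.8 and 88.4 RPKM in high-performing pools. Low-performing pool 2 alone lay outside the high-performing range. The log2 fold change was -0.15 ± 0.14 (SE; 95% interval -0.49 to 0.19; limma adjusted p = 0.468), -0.31 without low-performing pool 1 and 0.0034 without low-performing pool 2.

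MCM5 and MCM2, whose contact is the gate through which DNA enters the ring, overlapped between groups. MCM5 (ENSBTAG00000015595, chromosome 5, positions 73633313 to 73651860, plus strand) had 51.8 and 45.1 RPKM in low-performing pools, against 53.5, 39.4 and 41.6 RPKM in high-performing pools. MCM2 (ENSBTAG00000014380, chromosome 22, positions 59896021 to 59912780, minus strand) had 45.4 and 40.97 RPKM in low-performing pools, against 48.96, 40.2 and 41.0 RPKM in high-performing pools. For both genes high-performing pool 1 was the highest of the 5 and high-performing pool 2 the lowest. The log2 fold changes were 0.12 ± 0.17 (SE) for MCM5 and -0.0040 ± 0.14 (SE) for MCM2, with 95% intervals from -0.28 to 0.51 and from -0.34 to 0.33. Leaving out low-performing pool 1 gave 0.02 for MCM5 and -0.076 for MCM2, and leaving out low-performing pool 2 gave 0.22 for MCM5 and 0.068 for MCM2.

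Summed over the ring, the MCM transcripts came to 438 and 368 RPKM in low-performing pools 1 and 2, against 458, 454 and 438 RPKM in high-performing pools 1, 2 and 3. Low-performing pool 1 was level with high-performing pool 3, and low-performing pool 2 was the lowest. The median log2 fold change of the 6 subunits was -0.08, with 2 above 0 and 4 below, and it was -0.19 without low-performing pool 1 and 0.036 without low-performing pool 2. It was 0.11 with the gene length trend removed. The direction of the ring as a whole therefore turned with 1 pool and with the treatment of gene length.

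**Figure D3:**
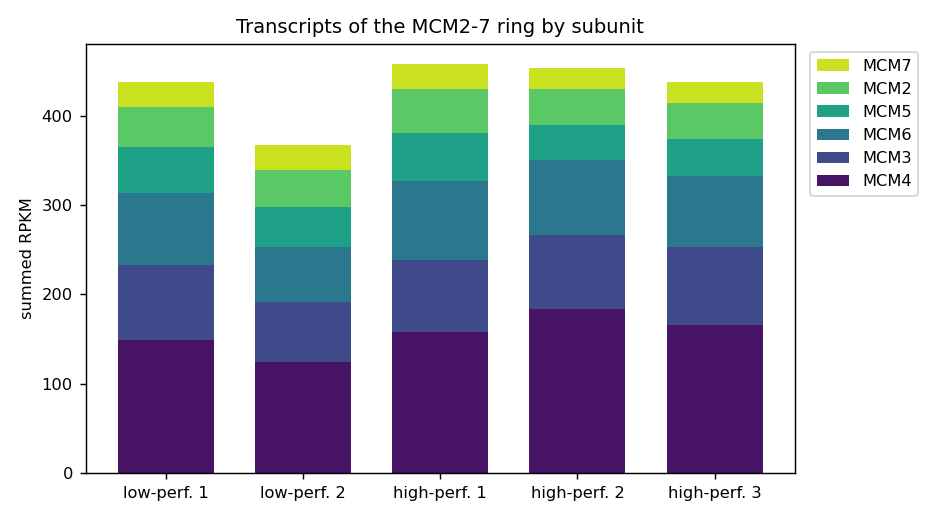
Summed RPKM of MCM2 to MCM7 in each pool, low-performing pools left and high-performing pools right, split by subunit (1 bar per pool, no error bars). MCM4 takes the largest share and MCM7 the smallest in every pool, and low-performing pool 2 has the lowest sum, 368 RPKM.

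Over all 5 pools the members ranked from MCM4, at a mean of 156 RPKM, through GMNN at 116 RPKM, MCM3 at 80.6 RPKM and MCM6 at 78.8 RPKM, to MCM5 at 46.3 RPKM, MCM2 at 43.3 RPKM and CDC6 at 42.3 RPKM. CDT1 at 29.9 RPKM, MCM7 at 26.1 RPKM and ORC1 at 16.9 RPKM were the lowest. Of the 9 neighbouring pairs in this order, the ranges over the pools were apart for MCM6 with MCM5, for CDC6 with CDT1 and for MCM7 with ORC1, and overlapped for the other 6. All members were among the more abundant genes, with means between the 59.7th percentile of the genes tested for ORC1 and the 95.7th for MCM4.

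Other replication genes were followed in 5 lists with 74 genes in all, of which 70 passed the filter. None passed limma or limma voom after adjustment. At an unadjusted limma p under 0.05, 10 stood higher and 11 lower with the low-performing sires, against 19% and 15.9% of all genes, and 44 of the 70 did not overlap between groups, 23 higher and 21 lower, against 58.7% of all genes. Their median log2 fold change was -0.04. The authors' deposited table gave 6 of the 74 an FDR under 0.05 with a higher level in the low-performing pools and 2 with a lower one. The shares of all 27607 genes there were 5.51% and 2.45%. That base holds 15159 genes under the filter, while 70 of the 74 passed it, so the shares are not like for like. The higher ones were RPA3 (FDR 1.6e-06), POLE4 (2.5e-05), RBX1 (0.00017), SKP1 (0.00029), RFC3 (0.0103) and RPA2 (0.0467). The lower ones were TOPBP1 (0.0276) and CUL4B (0.0350).

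The remaining subunits of the origin recognition complex and its partner LRWD1 had a median of -0.09 over 6 genes on the log2 fold change scale. It was -0.19 without low-performing pool 1, 0.015 without low-performing pool 2 and -0.14 with quantile normalization. ORC6 was highest in the low-performing pools, at 136 and 166 RPKM against 117, 91.8 and 102 RPKM in the high-performing pools (log2 fold change 0.54 ± 0.16, SE; limma adjusted p = 0.0868). ORC2 was at the other end, at 22.8 and 16.5 RPKM in low-performing pools against 27.3, 25.7 and 24.7 RPKM in high-performing pools (log2 fold change -0.40 ± 0.16, SE; limma adjusted p = 0.133). Both sets of pools were without overlap, in opposite directions.

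Genes that activate the loaded helicase and fire origins stood at a median of -0.07 over 18 genes on that scale, with 8 above 0 and 10 below, and a median of 0.09 with the gene length trend removed. The median was -0.12 when low-performing pool 1 was left out, -0.011 when pool 2 was left out and -0.22 over the genes with a mean of at least 5 RPKM. GINS2, a subunit of the GINS complex that binds the active ring, had 162 and 213 RPKM in low-performing pools against 141, 107 and 127 RPKM in high-performing pools (log2 fold change 0.58 ± 0.18, SE; limma adjusted p = 0.0904). TOPBP1, a scaffold for helicase activation and checkpoint signalling, had 9.35 and 5.67 RPKM in low-performing pools against 12.3, 12.2 and 12.1 RPKM in high-performing pools. Its log2 fold change was -0.67 ± 0.19 (SE; limma adjusted p = 0.0841), and in the authors' deposited table its FDR was 0.0276. The other GINS subunits, GINS1, GINS3 and GINS4, had log2 fold changes of 0.06, 0.04 and 0.18.

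Regulators of CDT1, geminin and the MCM ring stood at a median of -0.28 over 13 genes tested, of which 11 were below 0. The median was -0.48 when low-performing pool 1 was left out, -0.09 when pool 2 was left out and -0.08 with the gene length trend removed. Parts of the ubiquitin ligases that mark CDT1 for destruction were found at both ends. RBX1, the RING subunit that these ligases share, had 20.4 and 35.2 RPKM in low-performing pools against 14.9, 9.49 and 12.4 RPKM in high-performing pools (log2 fold change 1.09 ± 0.26, SE; limma adjusted p = 0.0829). CUL4B, a scaffold subunit, had 13.2 and 7.55 RPKM in low-performing pools against 15.5, 18.2 and 17.9 RPKM in high-performing pools (log2 fold change -0.72 ± 0.22, SE; limma adjusted p = 0.0872). GMNC and MCIDAS, the other geminin family genes, were under the filter, at 0.195 to 0.472 RPKM and at 0.009 to 0.079 RPKM over the 5 pools.

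At the replication fork the median log2 fold change was 0.10 over 25 genes tested, with 14 above 0 and 11 below. It was 0.025 without low-performing pool 1 and -0.0034 with quantile normalization. RPA3, the smallest subunit of the protein that coats single-stranded DNA, had 83.6 and 116 RPKM in low-performing pools against 57.1, 27.8 and 32.7 RPKM in high-performing pools (log2 fold change 1.38 ± 0.30, SE; limma adjusted p = 0.0829). WDHD1, which tethers DNA polymerase alpha to the helicase, had 25.1 and 17.6 RPKM in low-performing pools against 30.3, 32.5 and 30.8 RPKM in high-performing pools (log2 fold change -0.55 ± 0.17, SE; limma adjusted p = 0.0878). Genes that take the helicase off the DNA at the end of replication had a median of -0.06 over 8 genes, which came to 0.023 when low-performing pool 2 was left out, to 0.11 with the gene length trend removed, to -0.093 with a pseudocount of 0.1 and to -0.097 with limma voom. Their range ran from VCP at -0.22 ± 0.14 (SE) to UFD1 at 0.31 ± 0.16 (SE).

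**Figure D4:**
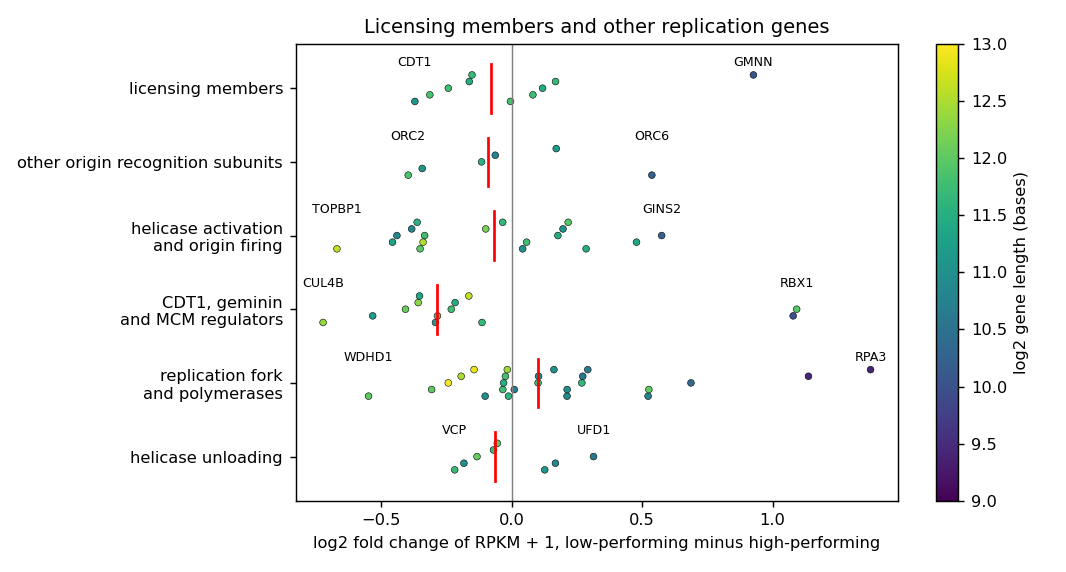
Log2 fold change of RPKM + 1, low-performing minus high-performing, of the 10 licensing members and of 5 lists of other replication genes (1 point per gene, coloured by log2 gene length; red bar, median of the list). The genes with the highest and lowest value in each list are named; the short genes, in dark colours, lie to the right.

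Within the members and these lists, 80 genes in all, the profiles over the 5 pools most like that of GMNN were those of RBX1, RFC3 and POLE4, with mean absolute differences of 0.095, 0.115 and 0.138 between profiles of log2(RPKM + 1) centred on their means. RFC3, a subunit of the clamp loader, had 60.4 and 76.6 RPKM in low-performing pools against 49.0, 35.3 and 42.4 RPKM in high-performing pools. POLE4, an accessory subunit of DNA polymerase epsilon, had 96.6 and 153 RPKM in low-performing pools against 66.1, 49.3 and 50.1 RPKM in high-performing pools. The profiles most like that of CDT1, the member with the lowest log2 fold change, were those of MCM9 (0.027), CCNA2 (0.059) and SKP2 (0.068). SKP2, which recognises CDT1 for a ubiquitin ligase in human cells, had 132 and 102 RPKM in low-performing pools against 135, 139.9 and 153 RPKM in high-performing pools. Cyclin A2 mRNA (CCNA2) was abundant, at 329.98 and 277 RPKM in low-performing pools against 362, 413 and 409.6 RPKM in high-performing pools.

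Gene length went with the differences. Across all 12448 genes tested, the log2 fold change and the log2 of gene length had a Pearson r of -0.475 and a Spearman rho of -0.516, and across the 80 licensing and replication genes r was -0.623 and rho -0.492. Genes share pools and are not independent replicates, so these values are descriptions. All 7 of the 80 genes under 1500 bases, a limit set after the values were seen, were higher in the low-performing pools. Their median log2 fold change was 0.93, and GMNN was 1 of them. Among all genes tested, 75.3% of 3286 genes under that length were above 0, with a median of 0.37. Of the 73 longer licensing and replication genes 26 were above 0, with a median of -0.10, and all longer genes tested had a median of -0.11. RBX1, at 3918 bases, was a long gene among those with the highest values. With the gene length trend removed GMNN remained above 0 and CDT1 below 0, at 0.62 and -0.35 on the log2 scale.

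**Figure D5:**
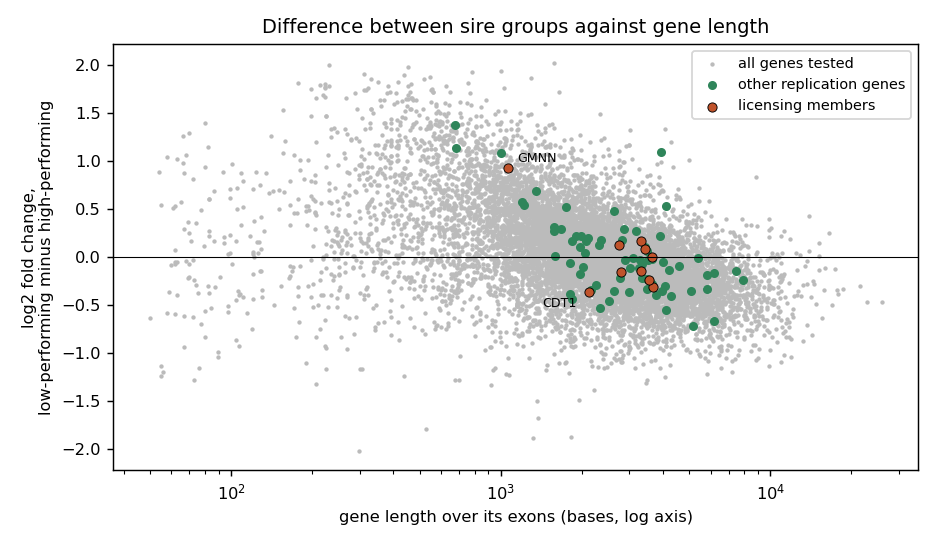
Log2 fold change, low-performing minus high-performing, against gene length in bases over the exons (log axis), for all 12448 genes tested (grey), the other replication genes (green) and the 10 licensing members (orange, GMNN and CDT1 named). Short genes tend to lie above 0 and long genes below; GMNN, at 1068 bases, sits among the short genes and the other 9 members at 2128 to 3667 bases.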

How the data were processed

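Per the labels' protocols, RNA of whole embryo pools went through a column kit and a stranded mRNA library kit. The submitters' processing notes name featureCounts, edgeR, FastQC and build ARS-UCD1.2; the aligner, tool versions and strand setting of the counting were not given in the sources used here. RPKM was deposited by the authors for each pool, with gene length. RPKM times length in kilobases summed to 1000000 in every pool. The authors' comparison, deposited beside them, holds log2 fold changes, log2 CPM averages, a likelihood-ratio score, p-values and their FDR; 99.4% of fold changes other than 0 had the sign of low-performing minus high-performing mean RPKM. All RPKM values gave whole reads within a tolerance of 1e-06. Symbols of all 10 members were found on the same chromosome in RefSeq (assembly ARS-UCD2.0).

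The test was limma 3.58.1 (R 4.3.3) on log2(RPKM + 1), with the prior variance trended on intensity, for genes with at least 1 RPKM in at least 2 pools, with Benjamini-Hochberg adjustment over all 12448 genes and a two-sided threshold of 0.05. The pseudocount of 1 understates changes of low genes. The script was tested on simulated counts. The exact permutation test used scipy 1.17.1; figures used matplotlib 3.10.9. Members and lists were chosen with earlier results of these data known. Named genes were all members, the highest and lowest fold change in each list, and the 3 profiles most like those of GMNN and of the lowest member, by mean absolute difference; other genes were named after their values were seen. As alternatives there were pseudocounts of 0.1 and 0.5, 2 filters, a trimmed-mean factor, quantile normalization, a replicate block, removal of a loess trend (span 0.5) over log2 gene length, limma voom on recovered reads, and each pool left out.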

Additional observations from a re-analysis of the deposited data

How the results depend on the processing

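GMNN stayed above 0 under all 14 alternatives, with log2 fold changes from 0.62 to 1.17. Since both low-performing pools lay above every high-performing pool, other pseudocounts, other filters and leaving out a pool could not turn its sign. Among the alternatives that kept both low-performing pools, GMNN passed only with the replicate number as a block. Leaving out 1 pool at a time gave 0 to 5436 called genes and 0 to 4 called members, the 4 being MCM4, MCM6, CDT1 and GMNN without low-performing pool 1. The log2 fold changes then ranged from 0.68 to 1.17 for GMNN, -0.54 to -0.20 for CDT1, -0.44 to -0.18 for MCM4, -0.43 to -0.052 for MCM6, -0.025 to 0.19 for CDC6, -0.076 to 0.084 for MCM2, -0.31 to 0.0034 for MCM3 and -0.19 to 0.036 for the median of MCM2 to MCM7. MCM2 also turned to 0.012 with a trimmed-mean factor. With the gene length trend removed MCM2 was at 0.20, MCM3 at 0.023 and the median of MCM2 to MCM7 at 0.11. The cause of these shifts was not tested. The replicate number as a block leaves high-performing pool 3 without a partner. With it, limma called 833 of 12448 genes tested and 1 of the 10 members, GMNN, at a log2 fold change of 0.98 (adjusted p = 0.043). That log2 fold change is the same as the one without high-performing pool 3, so the 2 are not separate checks. The labels do not say that a number marks a shared batch, so the numbers were not taken as pairs. Deviations from the group means correlated at -0.485 between the pools numbered 1 and at -0.259 between those numbered 2. The deviations of 2 low-performing pools mirror each other, so each value returns with the opposite sign for the other pool and cannot decide on pairing. In log2 values across genes, low-performing pool 1 was closest to high-performing pool 1 (r = 0.993). Other pseudocounts, filters, quantile normalization and limma voom on recovered reads changed no call and turned no member's direction. The median of MCM2 to MCM7 was -0.078 in the test as reported and -0.14 with quantile normalization. The medians of the 5 lists of other replication genes moved by over 1.5 times with the settings given beside them and with some others. The replication fork median came to 0.18 with the gene length trend removed. Helicase unloading came to -0.029 without low-performing pool 1, and the origin recognition list to -0.14 without high-performing pool 2. Which sizes of difference 2 pools against 3 can show was not measured in these data, and a member that did not pass is not shown to be alike in both groups.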

Other observations

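The table also lists 3 short loci inside MCM7 on its strand. All 3 lie in its introns, bta-mir-106b and bta-mir-93 among them, and libraries made from mRNA do not measure mature microRNAs. bta-mir-106b had 2.53 and 1.47 RPKM in low-performing pools 1 and 2, from 20 and 11 reads, against 2.87, 3.16 and 4.16 RPKM in high-performing pools 1, 2 and 3, from 26, 17 and 30 reads (log2 fold change -0.56 ± 0.20, SE; limma adjusted p = 0.103). bta-mir-93 had 1.71 and 0.97 RPKM in low-performing pools, from 13 and 7 reads, against 2.18, 3.48 and 2.73 RPKM in high-performing pools, from 19, 18 and 19 reads (log2 fold change -0.70 ± 0.20, SE; limma adjusted p = 0.0835). The other locus, ENSBTAG00000029920, of 99 bases and with no name in the table, had 3.38 and 3.77 RPKM in low-performing pools, from 33 and 35 reads, against 3.48, 2.40 and 2.91 RPKM in high-performing pools, from 39, 16 and 26 reads (log2 fold change 0.23 ± 0.15, SE; limma adjusted p = 0.313). None of the 3 passed. Both named loci stood below 0, and the unnamed one stood above 0, as did MCM7 at 0.17.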
